A study of Homo sapiens with 9 samples.

Results

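The regions described here are 353 assembled RNA isoforms of human HEK293 cells that overlap an annotated transcript. They were classed neither as matching it nor as sharing a splice junction with it. Some can still be transcripts of the gene they overlap. They were chosen by class code, the letter with which Cuffcompare states how an assembled isoform relates to its closest annotated transcript, the reference. Code x marks exons that overlap the reference on the opposite strand, and code o marks any other exon overlap. All isoforms with code x or o and a mean signal of at least 30 over the 4 RNA-seq libraries were taken, which left 101 of 132 x isoforms and 252 of 316 o isoforms, out of 199618 isoforms in all and 61922 at that mean. The mean signal chose the members, so their levels are given as a description. Just inside the threshold were the o isoforms of CTC-806A22.1 (mean signal 30.38) and CTB-35F21.4 (30.46), and just outside it were CTD-2538G9.3 (class x, 29.15) and AP001631.1 (class o, 28.83).

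The study depleted factors of nonsense-mediated mRNA decay (NMD) by siRNA and sequenced cytoplasmic poly(A)+ RNA released with digitonin. The cells were HEK293 b-39 (Flp-In T-Rex), a human embryonic kidney line, and every group carried a b-globin PTC39 reporter at the Flp-In locus. The 4 groups were a control treated with EGFP siRNA, XRN1 depletion, SMG6/XRN1 depletion and UPF1/XRN1 depletion, with 1 RNA-seq library each, so no difference below has a replicate check and no p-value was computed. All cells came from 1 subline, and in bulk RNA fewer cells carrying an RNA and less of it per cell cannot be told apart.

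NMD removes mRNAs on which translation stops too early. UPF1 is the helicase at its core, SMG6 is an endonuclease that cuts the target near the stop codon, and XRN1 is the cytoplasmic exonuclease that degrades the downstream fragment from its 5′ end. Many human genes also have an antisense partner, a long non-coding RNA made from the other strand, often starting near or inside the gene. Such pairs, and intronless genes, pseudogenes and small RNAs inside longer transcripts, are where an assembled isoform often fails to match a single annotated transcript.

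The references of the most informative members show what kind of annotation they overlap. Sequences of 4 U6 copies from GENCODE v29 (build GRCh38) are printed to show the short references that some members were assigned to, with the U6 box ACAGAGA, searched on the printed strand, in capitals where it was found. It was found in 1 of these 4 copies and in 691 of 1276 annotated U6 copies (54.2%). They lie at chr10:42832447-42832550 (minus strand, class x), chrX:48959179-48959282 (minus, class x), chr15:78898840-78898936 (minus, class x) and chrX:101325404-101325510 (plus, class o), in that order.
U6 copy on chromosome 10: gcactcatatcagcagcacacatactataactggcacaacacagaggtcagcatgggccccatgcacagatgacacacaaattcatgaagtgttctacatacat
First U6 copy on X: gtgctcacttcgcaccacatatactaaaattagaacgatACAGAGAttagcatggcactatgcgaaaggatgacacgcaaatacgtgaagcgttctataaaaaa
U6 copy on chromosome 15: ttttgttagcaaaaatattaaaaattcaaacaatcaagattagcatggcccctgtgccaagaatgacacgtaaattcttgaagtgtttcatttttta
Second U6 copy on X: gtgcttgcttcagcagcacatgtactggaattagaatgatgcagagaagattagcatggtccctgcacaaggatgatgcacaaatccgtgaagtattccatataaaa

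The miRNA hairpins that are references of members follow from RefSeq (build GRCh38.p14), at chr13:40810766-40810861 (class x), chr1:228462074-228462152 (class o) and chr9:41233755-41233835 (class o), all on the plus strand. Capitals mark the 2 mature miRNAs of MIR4666A. The others are given without mature forms.
MIR621: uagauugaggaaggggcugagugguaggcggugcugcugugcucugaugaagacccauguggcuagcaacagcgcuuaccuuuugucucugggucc
MIR4666A: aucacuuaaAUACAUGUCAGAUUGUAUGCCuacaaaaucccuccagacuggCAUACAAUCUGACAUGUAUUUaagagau
MIR4477A: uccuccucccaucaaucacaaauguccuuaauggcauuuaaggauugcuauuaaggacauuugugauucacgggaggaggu

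Some antisense references are shown where they run opposite a coding exon of the gene on the other strand, to show where a class o member and a protein-coding gene are annotated on the same bases. Each is the antisense strand from GENCODE v29 (GRCh38), and capitals mark the bases that lie opposite coding bases. They face PA2G4 (chr12:56104728-56104782), MBNL1 (chr3:152458120-152458173), ASRGL1 (chr11:62391516-62391613) and SNX10 (chr7:26372481-26372568), each on the minus strand.
RP11-603J24.17: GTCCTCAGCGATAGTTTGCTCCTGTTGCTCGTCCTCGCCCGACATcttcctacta
RP11-362A9.3: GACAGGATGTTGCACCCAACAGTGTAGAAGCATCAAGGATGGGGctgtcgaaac
CTD-2531D15.5: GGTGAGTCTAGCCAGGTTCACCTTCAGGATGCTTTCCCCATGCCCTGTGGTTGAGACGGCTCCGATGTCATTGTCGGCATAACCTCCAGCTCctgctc
AC004540.4: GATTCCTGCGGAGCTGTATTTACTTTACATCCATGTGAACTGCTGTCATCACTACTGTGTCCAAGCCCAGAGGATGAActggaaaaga

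The signal is an estimate of reads per isoform, spike-in normalised by the authors and not divided by length. Low values lay on steps of 3.72 to 4.25, taken as the worth of 1 read, which gave 31.5e6 to 36.0e6 estimated reads per library. The median member had a mean of 20 estimated reads in class x and 46.67 in class o, and 51 x and 80 o isoforms were under 20 reads. The depletions were not visible in all targeted mRNAs: XRN1 was at 7.80, 7.31, 10.1 and 6.50 FPKM (fragments per length and depth) in control, XRN1, SMG6/XRN1 and UPF1/XRN1, SMG6 at 4.77, 5.55, 7.66 and 5.97, and UPF1 at 6.71, 11.6, 11.4 and 8.59. Libraries are therefore named by their labels throughout, and all lists of 4 values keep this order. HBB, the gene of the reporter, was at 139, 257, 355 and 747 FPKM. Of 5 markers fixed for HEK293, VIM, EPCAM, LIN28B and CDH2 were between 6.96 and 380 FPKM and PAX2 between 0.19 and 0.30. Of 10 markers of other cell types, INS was at 0.96 to 1.998 FPKM, ALB, COL1A1, GFAP, DES, PTPRC, CD3E and KRT5 were at 0.71 or less, and PECAM1 and MYH7 had no value.

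Both classes were built on unusual references. In class x, 34 of 101 reference genes were protein-coding, 34 were pseudogenes, 13 were other long non-coding RNAs, 9 small RNAs and 7 antisense RNAs, and 4 had no GENCODE v29 type. In class o, 62 of 252 were other long non-coding RNAs, 55 antisense RNAs, 54 protein-coding genes, 45 pseudogenes, 14 small RNAs and 1 a mitochondrial rRNA, and 21 had no type. Among the 42007 isoforms of code =, which match their reference intron by intron, 91.4% were protein-coding, 2.62% antisense and 0.052% small RNAs. Single-exon references made up 35 of 44 matched transcripts in class x (79.5%) and 114 of 224 in class o (50.9%), against 1.95% in code =. The x code also pointed at a whole gene record in place of a transcript in 50 of 101 isoforms (49.5%), against 5 of 252 in class o and 0.22% in code =.

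Most x isoforms stood alone. A total of 79 of 101 were the single isoform of their assembled locus, against 69 of 252 in class o, and 33 loci held several members (76 in all). The members together took 2.49%, 2.70%, 3.90% and 2.92% of all signal. Apart from the mitochondrial ones that share was 0.28% to 0.31%, and class x alone took 0.018% to 0.020%.

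**Figure D1:**
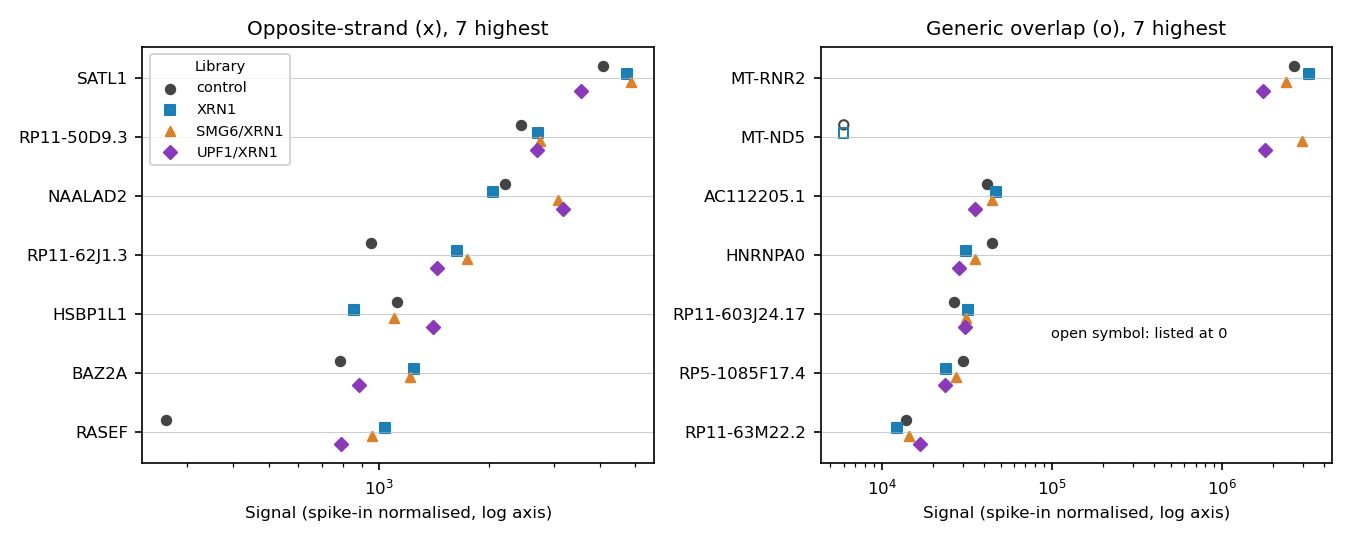
Signal (spike-in normalised, log axis) of the 7 reference genes of highest mean in class x and class o, 1 symbol per library. The isoform facing RASEF is lowest in control at 262. The MT-ND5 isoform is listed at 0 in control and XRN1, drawn as open symbols at an arbitrary place on the left.

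The highest x isoform faced SATL1, an acetyltransferase-like gene, with a signal of 4070, 4746, 4855 and 3552. The library labelled UPF1/XRN1 was lowest and the range was narrow. It lies on the strand of APOOL, a mitochondrial cristae protein that overlaps SATL1 from the other side and had a signal of 1862, 2154, 2168 and 1886. The isoform facing the antisense RNA RP11-50D9.3 was at 2436, 2717, 2755 and 2697, on the strand of the chaperone gene HSPA4L at 15922, 16879, 20656 and 18938. In these 4 sets of values the lowest library was control or UPF1/XRN1.

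The isoform facing NAALAD2, a peptidase gene, had a signal of 2212, 2041, 3082 and 3173, so both co-depletions were above both other libraries. By estimated reads, UPF1/XRN1 was 1.55 times XRN1 (95% interval 1.39 to 1.74, counting error only). The annotated isoforms of NAALAD2 on the other strand were at 274, 551, 1144 and 934, also highest in the co-depletions with XRN1 already above control. The isoform facing the pseudogene RP11-62J1.3 was at 952, 1632, 1739 and 1440 and the one facing BAZ2A, a nucleolar chromatin factor, at 782, 1247, 1216 and 882. BAZ2A's annotated isoforms were at 8152, 8581, 10662 and 8835.

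RASEF, a Rab-family GTPase gene, faced an x isoform that was low in control. The isoform on its opposite strand was at 262, 1041, 957 and 789 (68, 257, 225 and 212 estimated reads), so control was lowest and the 3 depleted libraries lay close together. XRN1 was 3.97 times control (95% interval 3.03 to 5.27, counting error only). RASEF's annotated isoforms were at 8221, 8325, 8820 and 9205 and did not show that step.

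Several other x isoforms moved apart from, or against, the gene they faced. The isoform facing EMBP1, a pseudogene of the adhesion protein embigin, was at 231, 85.0, 119 and 78.1 while EMBP1 itself was at 45.7, 186, 326 and 489. The isoform facing CDPF1 was at 486, 288, 476 and 305 against 466, 684, 735 and 714 for CDPF1. The isoform facing CYP20A1, an orphan cytochrome P450, was at 428, 304, 463 and 305 against 856, 1158, 1862 and 1719. In each, control was the lowest library for the gene and was not the lowest for the isoform.

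Others went the same way as the gene they faced or, for LAGE3, as a gene on their own strand. The isoform facing CELSR1, an atypical cadherin, was at 27.0, 76.9, 115 and 201, and CELSR1 was at 185, 1336, 1220 and 818. Both were lowest in control, but the isoform was highest in UPF1/XRN1, at 2.61 times XRN1 (95% interval 1.52 to 4.66), where the gene was below XRN1. The isoform facing CSNK1D, the casein kinase 1 delta gene, was at 54.0, 105, 196 and 279 against 4405, 8841, 9752 and 9858. The isoform facing LAGE3, a tRNA-modification factor, was at 34.7, 121, 162 and 145 on the strand of PLXNA3, a semaphorin receptor at 154, 1150, 1160 and 1034.

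Over 24 x isoforms with a mean of at least 100 and a reference gene of at least 30, the change of the isoform and that of the gene on the other strand had the same sign in 13 isoforms for XRN1 over control, 14 for SMG6/XRN1 over XRN1 and 13 for the matching UPF1/XRN1 comparison. Their median absolute difference was 0.71, 0.36 and 0.51 on the log2 scale, and Pearson's r across the 24 was 0.04, 0.00 and -0.08. In 10 x isoforms with a mean of at least 100, a gene on the isoform's own strand overlapped the reference. These were taken without a minimum for the reference gene, so they are not a subset of the 24. Their difference from the gene on their own strand was 0.40, 0.22 and 0.32, and r was 0.82, -0.08 and 0.24. Isoform and gene come from the same libraries in all of these, and isoforms are not replicates of a condition.

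The other small-RNA references of class x gave low but present signals. The isoform facing the U6 copy on chromosome 10 was at 331, 312, 417 and 387, on the strand of BMS1, a ribosome assembly GTPase at 24635, 22720, 29115 and 31788. The isoform facing the first U6 copy on X was at 270, 271, 221 and 156. Those facing the copy on chromosome 15 and MIR621 were at 65.5, 68.8, 93.5 and 63.2 and at 80.9, 72.9, 89.3 and 63.2. None of the 9 small-RNA isoforms of class x was 2-fold higher in XRN1 than in control, and 3 were 2-fold lower, where 24.4% and 12.7% of all 61922 isoforms at a mean of 30 were.

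In class o, the largest values were mitochondrial. An isoform overlapping MT-RNR2, the mitochondrial large ribosomal RNA, had a signal of 2638823, 3236887, 2374041 and 1743588. An isoform overlapping MT-ND5, a subunit of respiratory complex I, was listed at 0 in control and XRN1 and at 2958655 and 1779848 in the co-depletions. The other 2 mitochondrial isoforms with a signal, of code =, were not at 0: MT-CYB had 174917, 155015, 119595 and 95318 and MT-ND6 had 142942, 154136, 81374 and 54091. All 3 that were measured in every library were lowest in UPF1/XRN1, and no fold is given for MT-ND5 because a value of 0 can be a failed estimate.

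The 55 o isoforms whose reference is an annotated antisense gene were compared with the gene on the other strand. For 41 of them a gene with a signal of at least 30 lay on the other strand, and for 48 the antisense gene had annotated isoforms of its own, whose signal was under 30 in 22 and 0 in 8. The member's signal was a median of 24.3 times that of the annotated antisense isoforms and 0.305 times that of the gene on the other strand.

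RP11-362A9.3 is antisense to MBNL1, the muscleblind splicing regulator. Its isoform was at 5924, 9124, 10330 and 9441, and MBNL1 at 3222, 4694, 5565 and 5197, so in both control was lowest and SMG6/XRN1 highest. RP5-1132H15.1 is antisense to CRCP, an RNA polymerase III subunit, and was at 4663, 6670, 8447 and 10189 beside 1084, 1531, 1712 and 2265. The 4 libraries had the same order in both. CTD-2531D15.5 is antisense to ASRGL1, an asparaginase, and was at 1400, 1733, 2854 and 3950 beside 1225, 1262, 1912 and 2393. Its isoform was 2.28 times higher in UPF1/XRN1 than in XRN1 (95% interval 2.04 to 2.56).

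Other members of this kind varied less between libraries. RP11-603J24.17 was at 26627, 32127, 31329 and 30826 beside PA2G4, a growth regulator, at 63563, 73726, 66323 and 60548. RP5-1085F17.4 was at 29963, 24075, 27305 and 23476 beside MAPRE1, the microtubule end-binding protein EB1, at 21588, 17588, 18798 and 17137. RP11-63M22.2 was at 13922, 12287, 14447 and 16730 beside the dynein subunit gene DYNC1LI2 at 5319, 4272, 4944 and 6380. In the MAPRE1 pair control was highest, and in the DYNC1LI2 pair UPF1/XRN1 was.

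Isoform and gene differed elsewhere. The isoform of AC012358.8, antisense to CCDC88A, was at 558 in control and 231 in XRN1, with 571 and 666 in the co-depletions, while CCDC88A was at 7994, 7812, 9382 and 8671. The AC012358.8 locus, summed over its isoforms, was at 2794, 2730, 3962 and 3292. That sum had the same order of libraries as CCDC88A, so the difference holds for the single isoform only. The minor isoform of CTD-2537I9.12 was at 293, 202, 457 and 423, whereas its major isoform was at 6217, 8154, 10154 and 9993 beside U2AF2, the large subunit of the splicing factor that binds the polypyrimidine tract, at 9310, 9265, 13496 and 13979.

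Over the 29 such isoforms of 26 antisense genes with a mean of at least 300 and no 0, the log2 change of the isoform and that of the gene on the other strand differed by a median absolute 0.14 in XRN1 over control, 0.12 in SMG6/XRN1 over XRN1 and 0.22 where UPF1/XRN1 was set over XRN1. They had the same sign in 23, 27 and 25 of 29, and Pearson's r across the 29 was 0.66, 0.45 and 0.58. With the 7 weaker isoforms down to a mean of 30 included (36 in all), the same differences were 0.23, 0.20 and 0.24 and r was 0.35, 0.12 and 0.22. In 13 o isoforms of other reference types with a gene on the other strand, at the same minimum of 300, the differences were 0.54, 0.87 and 0.62. All points of a comparison share its 2 libraries, so these are descriptions and carry no p.

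**Figure D2:**
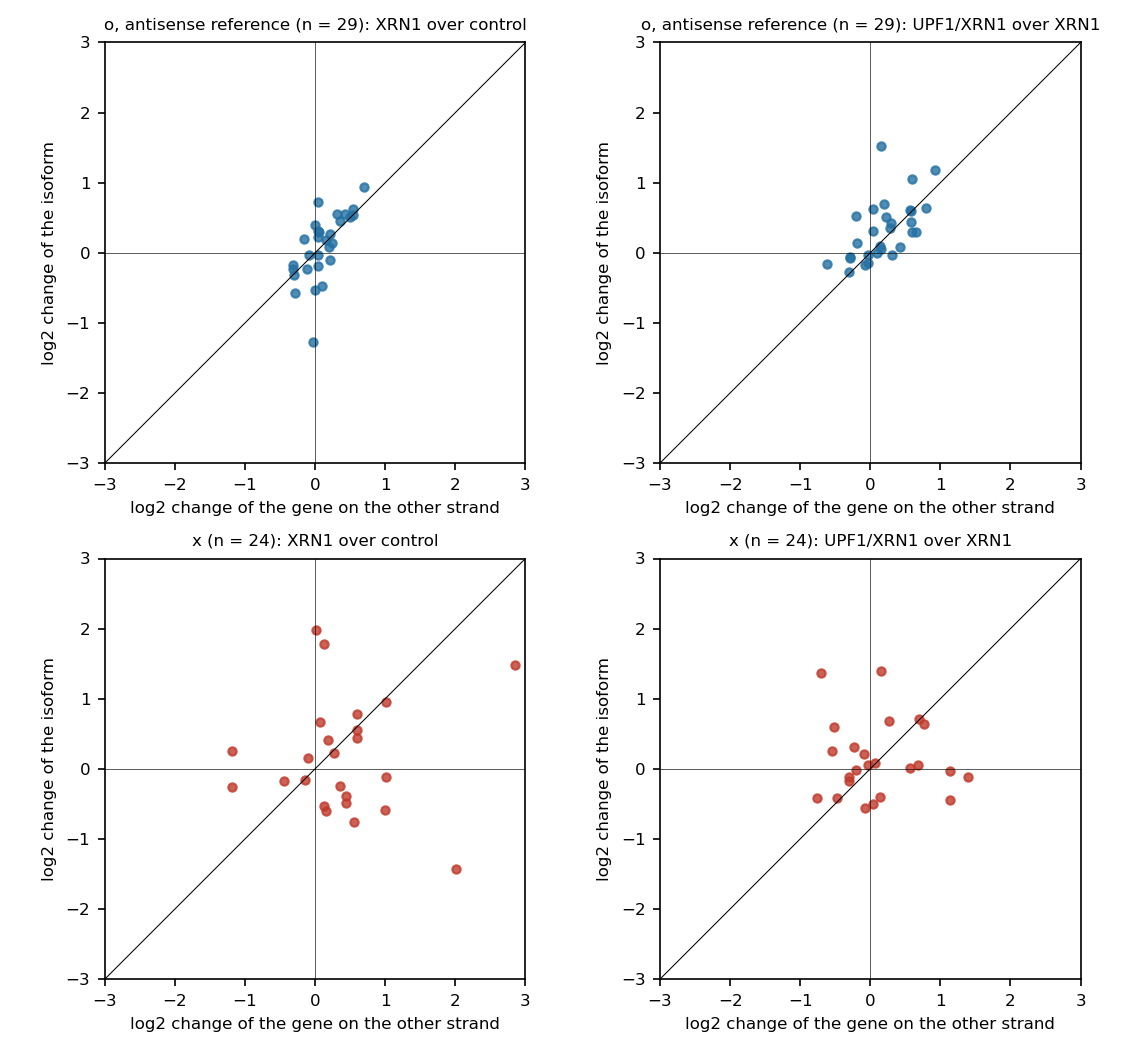
Log2 change of the isoform (vertical) against the log2 change of the gene on the other strand (horizontal), for 29 class o isoforms with an antisense reference (top) and 24 class x isoforms (bottom), in XRN1 over control (left) and UPF1/XRN1 over XRN1 (right), with the line of equal change. Class o isoforms have a mean of at least 300 and class x isoforms of at least 100, so the classes are not matched for depth. Most class o points lie near the line (median absolute difference 0.14 and 0.22), with a few far from it. Class x points are more scattered (0.71 and 0.51).

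The sources used here do not say whether counting was stranded. If it was not, reads of a gene and of its antisense partner cannot be told apart where they overlap. The annotated exons of the antisense reference shared bases with exons of the gene on the other strand in 21 of the 29, with coding exons in 16, and with none in 8 (MAPRE1 and CRCP among the latter). Its part in the shared changes was not tested.

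By an estimate from signal and FPKM, the assembled models of these members were mostly much longer than their references. A length can be read from each locus where 1 isoform holds at least 90% of the signal, as estimated reads divided by FPKM and library depth. For 2767 code = isoforms it returned a median of 1.05 times the annotated length (middle 80%, 0.74 to 1.18). For the 129 with references under 500 bases the median was 0.69 times, but the middle 80% ran from 0.42 to 9.4. Of these 129, 19 (14.7%) came to at least 5 times the reference, so the estimate is looser for short references. Single estimates can be far off. The highest of a code = isoform was 7.827e+05 bases, and LINC00457, also code =, came to 2.5e+05 bases against an annotated 413. For the 27 o isoforms with an antisense reference the length was a median of 8.4 times the reference. It was at least 5 times in 18, and 9 estimates were at least 10000 bases. RP11-362A9.3 came to 47.0 kb against an annotated 474 bases, RP5-1132H15.1 to 33.4 kb against 404 and AC005042.4, antisense to PKP4, to 75.2 kb against 4067. The RP11-362A9.3 locus was at 0.99 FPKM in control where that of MBNL1 was at 6.2. The length was computed from that FPKM, so the low FPKM and the long estimate are not separate observations.

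Class x estimates were shorter, with a median of 1907 bases over 35 and none above 7831. The U6 copy on chromosome 10, 104 bases long, had an implied model of 3183 bases, and the first copy on X one of 2438. In class o the references RN7SL737P (282 bases, a copy of the signal recognition particle RNA) and MIR4666A (79 bases) had implied models of 4475 and 4469 bases. A long estimate is not particular to these classes: among code j isoforms, which share a splice junction with their reference, 186 of 354 (52.5%) were at least 5 times the reference, against 52 of 2767 (1.88%) in code =.

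**Figure D3:**
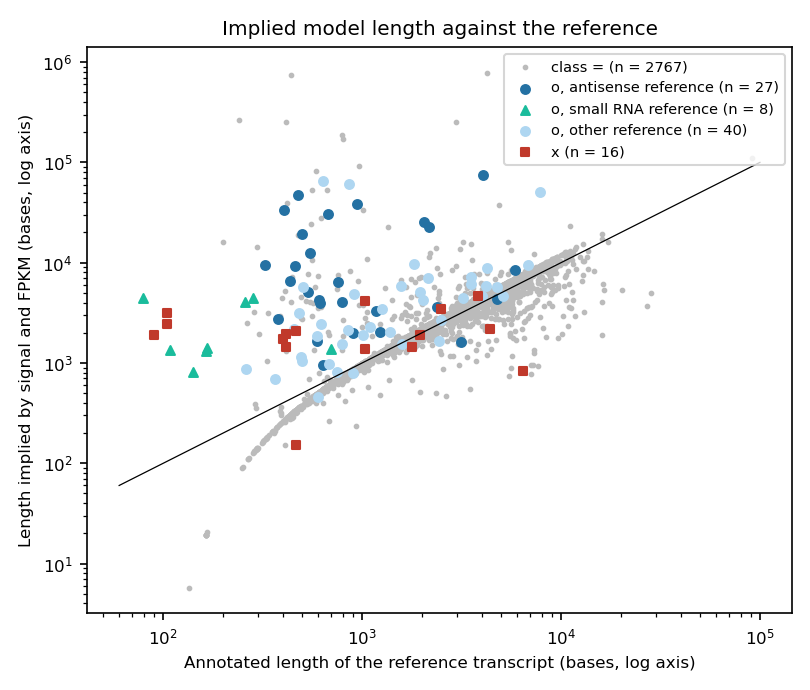
Length of the assembled model implied by signal and FPKM against the annotated length of the reference transcript (bases, both axes log), for loci where 1 isoform holds at least 90% of the signal, with the line of equality. Most of the 2767 code = isoforms (grey) follow the line (median ratio 1.05), and most class o isoforms with an antisense or small-RNA reference lie above it, up to 75.2 kb.

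Intronless protein-coding genes formed another group of class o, 33 isoforms with a single-exon reference. HNRNPA0, an RNA-binding protein, had a major isoform at 44602, 31430, 35285 and 28616 and a minor one at 8691, 7216, 7889 and 7928. IER5, an immediate-early response gene, was at 3924, 3944, 3924 and 3288, and FAM127C at 2355, 2353, 2436 and 2054. EIF5AL1, a copy of the translation factor eIF5A, was at 8256, 8428, 6330 and 6133. In the 3 main comparisons 3, 5 and 5 of the 33 were 2-fold higher (all isoforms 24.4%, 25.2% and 27.2%) and 2, 0 and 3 were 2-fold lower (12.7%, 9.37% and 11.6%). In UPF1/XRN1 over control 7 were higher and 5 lower, where 35.6% and 10.4% of all isoforms were. In the 3 main comparisons the median log2 change was -0.03, 0.10 and -0.05.

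Histone genes, intronless and mostly without poly(A) tails, gave 12 o isoforms. HIST3H2A was at 2871, 3418, 2257 and 2474, HIST1H2AI at 3512, 2604, 2180 and 2159, and HIST1H4E at 2568, 2167, 2584 and 2396. In these 3 no library was 2-fold above another. The isoform of HIST1H2BJ was listed at 0 in control, at 0.053 in XRN1 and at 260 and 400 in the co-depletions, and it held 8.27% of its locus.

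Small RNAs were the reference of 14 o isoforms, of which 6 were 2-fold lower and 2 were 2-fold higher in XRN1 than in control (median log2 change -0.75), where 12.7% of all isoforms were lower and 24.4% higher. In SMG6/XRN1 over XRN1, 8 were higher and 0 lower (median 1.09, all isoforms 25.2% and 9.37%), and in UPF1/XRN1 over XRN1, 5 were higher and 1 lower (0.78, all isoforms 27.2% and 11.6%). These comparisons share the XRN1 library. The values belong to isoforms that overlap the small RNA, not to the small RNA itself. The isoform at SNORD3A, a U3 small nucleolar RNA gene, had an implied length of 1379 bases against an annotated 699. It was at 452, 200, 443 and 522, and the XRN1 library, the lowest, was at 0.44 times control (95% interval 0.309 to 0.619). The isoform at RNU5B-1, a U5 spliceosomal RNA gene, was at 61.7, 24.3, 136 and 81.8 and the one at MIR4477A at 116, 48.6, 132 and 67.0. The isoform at the second U6 copy on X was at 27.0, 12.1, 59.5 and 145, lowest in XRN1 and highest in UPF1/XRN1. The isoform at RN7SL644P differed, at 251, 494, 944 and 867, with control lowest. The one at MIR4666A was at 235, 271, 383 and 316. Which copy of a small RNA a read came from is uncertain.

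The 5 comparisons share libraries and are given side by side. Changes of the whole set were set beside those of all 61922 isoforms at the same mean, on log2((a + 1)/(b + 1)) of the signal with 2-fold as the limit. In XRN1 over control 73 of 353 members were higher and 45 lower (20.7% and 12.7%), where 24.4% and 12.7% of all isoforms were. By class, 30 of 101 x isoforms were higher and 11 lower (29.7% and 10.9%), against 43 and 34 of 252 o isoforms (17.1% and 13.5%). Median log2 changes were 0.26 in class x, 0.00 in class o and 0.18 in all isoforms. In class x 8 of the 13 on other long non-coding RNAs were at least 2-fold higher and 0 lower, with a median of 1.17. Their median signal was 64.85. The mean of 30 lets in isoforms that are low in control, as 30 of the 101 x isoforms were under 30 there. The count for these 13 is therefore a description only.

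The largest x changes in XRN1 over control rested on few reads. The isoform facing GS1-279B7.1, a pseudogene, was at 21.0, 254, 137 and 87.8 (5, 63, 32 and 24 reads). The one facing CYP3A7, a fetal cytochrome P450 gene, was at 23.1, 194, 72.3 and 63.2 (6, 48, 17 and 17 reads). In both XRN1 was highest and control lowest. The isoforms facing CHCHD5 and TAF9BP2 went the other way, at 84.8, 12.1, 55.3 and 40.9 and at 77.1, 16.2, 89.3 and 40.9, with XRN1 lowest. NEUROD2, a neuronal transcription factor, and the long non-coding AC069394.1 had x isoforms listed at 0 in control, at 64.8, 59.5 and 96.7 and at 55.9, 152 and 101 in the other libraries.

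Among class o isoforms far higher in XRN1 than in control was AL353791.1, which has no GENCODE type and stands alone in its locus. It was at 64.1, 699, 545 and 452 (17, 173, 128 and 121 reads), 10.7 times higher in XRN1 (95% interval 6.5 to 18.8), and all 3 depleted libraries were above control. The pseudogene LL0XNC01-240C2.1 had a like order, at 69.4, 388, 452 and 402. EPM2AIP1, which encodes a partner of laforin, was at 4453 in control and 1423 in XRN1, with 2135 and 1655 in the co-depletions.

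In SMG6/XRN1 over XRN1 84 members were higher and 19 lower (23.8% and 5.4%), against 25.2% and 9.37% of all isoforms, with medians of 0.38 and 0.30. Class x had 20 higher and 4 lower and class o 64 and 15. The x isoform facing ITGB5, an integrin subunit gene, was at 177, 117, 281 and 190. The one facing RP11-51F16.9 was at 212, 130, 268 and 186. In both SMG6/XRN1 was highest and XRN1 lowest. The x isoform facing PLA2G10, a secreted phospholipase gene, was at 30.8, 32.4, 97.8 and 52.1. The one facing TCF21, a mesenchymal transcription factor gene, was at 44.3, 16.1, 89.0 and 14.3.

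In UPF1/XRN1 over XRN1 83 members were higher and 23 lower (23.5% and 6.5%), against 27.2% and 11.6% of all isoforms, with medians of 0.27 and 0.24. Class x had 19 higher and 9 lower and class o 64 and 14. The x isoform facing AC006129.1, a long intergenic non-coding RNA, was at 65.5, 85.1, 115 and 332 (17, 21, 27 and 89 reads). It was 3.89 times higher in UPF1/XRN1 than in XRN1 (95% interval 2.4 to 6.6). The x isoform facing RP11-527D7.1 was at 11.6, 24.3, 25.5 and 108 and the one facing the pseudogene PKMP1 at 3.85, 12.1, 42.5 and 85.6. UPF1/XRN1 was the highest library in all 3. MTND4P12, a nuclear copy of a mitochondrial gene, was at 563, 668, 363 and 254 and lowest in UPF1/XRN1, as were MT-RNR2, MT-CYB and MT-ND6.

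Set against control, 122 members were higher and 18 lower in SMG6/XRN1 (all isoforms 35.2% and 8.60%), and 109 were higher and 22 lower in UPF1/XRN1 (35.6% and 10.4%). As shares of 353 these are 34.6% and 5.1%, and 30.9% and 6.2%. These shares lie near those of all isoforms, and no test was possible. A mean of 30 lets in isoforms through a high library: 86 members were under 30 in control. The 222 members at 30 or more in all 4 libraries had 19 higher and 14 lower in XRN1 over control (all such isoforms 15.3% and 5.28%), 23 and 3 in SMG6/XRN1 over XRN1 (15.3% and 3.43%) and 22 and 7 in UPF1/XRN1 over XRN1 (17.0% and 6.16%). Their shares were 8.6% and 6.3%, 10.4% and 1.4%, and 9.9% and 3.2%. At that minimum class x had 7 of 56 higher in XRN1 over control (12.5%, median 0.04), below the 15.3% of all such isoforms.

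**Figure D4:**
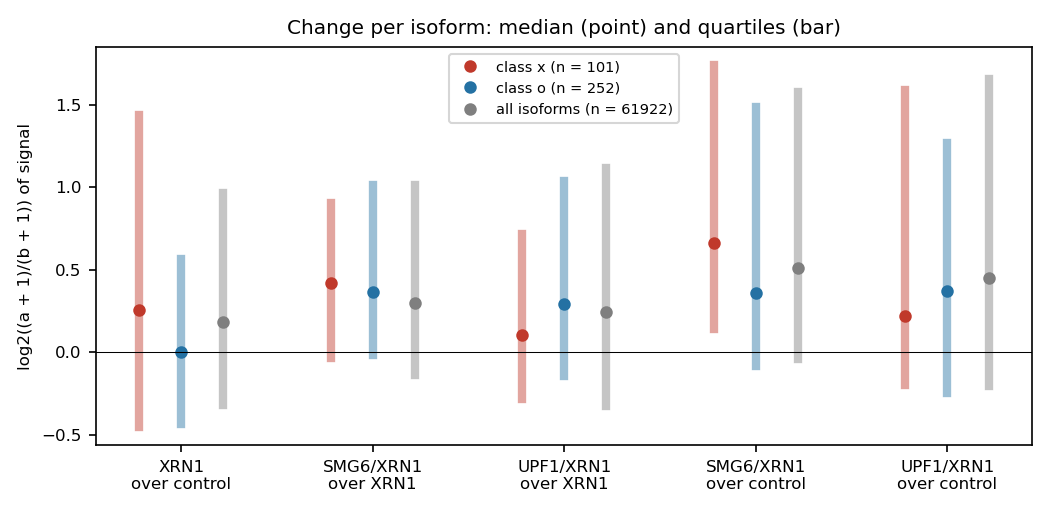
Log2 change of signal per isoform in the 5 comparisons: median (points) and quartiles (bars) of 101 class x isoforms, 252 class o isoforms and all 61922 isoforms at a mean of at least 30. In XRN1 over control the medians are 0.26, 0.00 and 0.18, and the bars of the 3 sets overlap in every comparison.

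At some loci a change of one member was offset by another isoform. RPL23AP53, a ribosomal protein pseudogene, had an o isoform at 996, 929, 0.593 and 1355 and another at 0.28, 0.28, 1350 and 0, while the locus as a whole was at 1805, 1685, 2143 and 2115. The first was all but empty in SMG6/XRN1 exactly where the second carried the signal. RP11-113K21.4 had isoforms at 516, 170, 0.055 and 193 and at 0.02, 170, 502 and 193. FOXD2-AS1, the antisense partner of a forkhead gene, had isoforms at 227, 121, 9.57 and 186 and at 0.01, 0, 233 and 0.01.

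Some members of intronless genes shared their locus with an annotated isoform, while those of HNRNPA0 and IER5 did not. TSPYL1, a nucleosome assembly protein, had an o isoform at 4695, 1291, 4641 and 1486 beside a code = isoform at 32823, 24988, 20245 and 19795. The o isoform was high in control and SMG6/XRN1 and low in the other 2, an order the locus did not share. SRSF8, a serine/arginine-rich splicing factor, had an o isoform at 365, 1095, 2267 and 2754 and a code = isoform at 4483, 3190, 2741 and 2606. The first was lowest and the second highest in control, and the sum was at 4849, 4285, 5008 and 5360. EID2, an inhibitor of differentiation, had o isoforms at 2666, 2037, 1617 and 856 and at 0.19, 0, 968 and 855.

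Among the 205 members in loci with several isoforms, 75 passed 2-fold in either direction in XRN1 over control, and the sum of the locus moved the opposite way in 23 of them (30.7%). In SMG6/XRN1 over XRN1 this was 19 of 69 (27.5%) and in UPF1/XRN1 over XRN1 16 of 75 (21.3%). All isoforms in such loci gave 31.1%, 28.5% and 30.6%, so this is not particular to the members. Summed over isoforms, the 310 member loci had 51 higher and 28 lower in XRN1 over control (all loci 11.4% and 3.36%), 59 and 5 in SMG6/XRN1 over XRN1 (7.79% and 0.889%) and 62 and 7 when UPF1/XRN1 was set over XRN1 (9.51% and 2.87%). Over control they had 93 and 6 in SMG6/XRN1 (20.9% and 1.29%) and 83 and 11 in UPF1/XRN1 (19.8% and 2.72%). The shares higher were 16.5% to 30.0% of 310, above those of all loci in each of the 5. The shares lower were also above those of all loci, except in UPF1/XRN1 over XRN1. Per isoform the members' shares higher were below those of all isoforms, a difference of direction that was not tested. Whether the low depth of many members has a part in it was not tested either. The sum was past 2-fold in the same direction in 42.7%, 37.7% and 46.7% of the called members, against 15.9%, 7.06% and 11.0% of all called isoforms. An isoform that holds most of its locus moves the sum by construction. The share held was not matched between members and all isoforms.

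**Figure D5:**
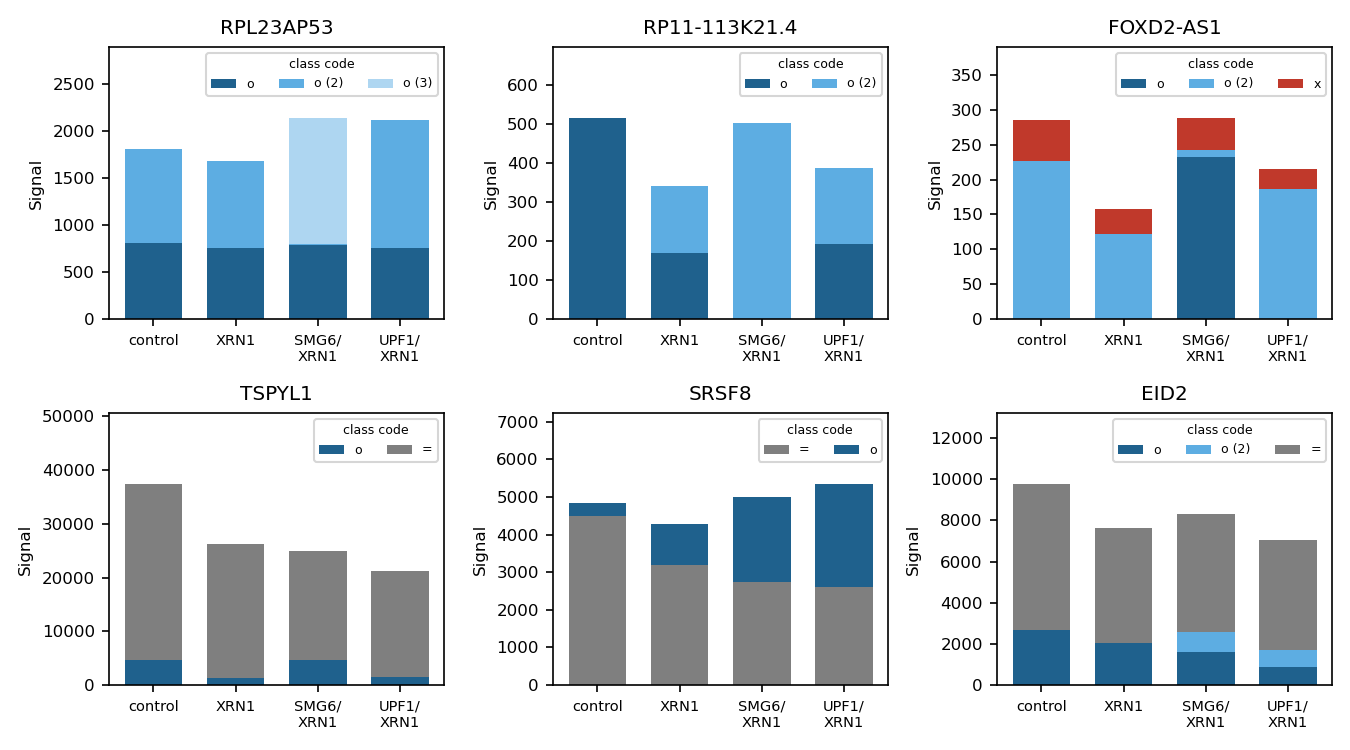
Signal of each isoform, stacked by class code, in the 4 libraries at 6 loci with class o members. In RPL23AP53, RP11-113K21.4 and FOXD2-AS1 different o isoforms carry the signal in different libraries, and in TSPYL1, SRSF8 and EID2 the o isoforms share the locus with a code = isoform (grey); the red bars of FOXD2-AS1 are a class x isoform of FOXD2.

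The authors' deposited table marks isoforms as NMD targets. The mark was TRUE for 88 of 353 members (24.9%), 29 of 101 in class x (28.7%) and 59 of 252 in class o (23.4%), against 27.9% of all isoforms at a mean of 30. It was TRUE exactly where both co-depletions were above 0 and over 2 times control, with 0 mismatches among the members, so it adds no measurement to the changes given above. Of the marked members, 13 were listed at 0 in control. The 13 gene lists (239 entries) included NMD and decay factors, splicing regulators and cell type markers. Only 2 lists had a member, the ATF4 targets and the mitochondrial genes. The first was PPP1R15A, a stress-response phosphatase subunit, whose o isoform was at 7.56, 74.9, 0 and 140 beside a code = isoform at 6806, 10900, 14866 and 19501.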

How the data were processed

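RNA-seq signal and FPKM per isoform and locus came from the authors' deposited tables for 4 libraries. Signal is spike-in normalised and FPKM is per length, per the file headers. The submitters' processing notes name CASAVA 1.8.2, Bowtie 0.12.7, TopHat2 2.0.6, Cufflinks 2.0.2 and hg19. No source used here says whether counting was stranded, and pseudogenes and near-identical copies are uncertain. The 5′-end and CAGE libraries were not used here.

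Isoforms were joined to their class code by identifier. A difference is log2((a + 1)/(b + 1)) of the signal. With 1 library per group, 2-fold was used as the limit and no test was run. Reads were estimated as signal divided by the step of low values, and 86.0% to 87.0% of such values were whole within 0.01. Read-ratio intervals are exact binomial (95%) and cover counting error only. GENCODE v29 (GRCh38) gave gene types, lengths and overlaps, matching a gene for 328 of 353 members. Its coordinates are those of the reference transcripts, not of the hg19 isoforms.

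The members and lists were chosen with earlier results of these data known. Isoforms were named per class by rule: the 8 of highest mean, the 5 largest increases and 3 largest decreases in each of 3 main comparisons (above 0 in all libraries, at least 20 reads in the larger), the 5 highest in both co-depletions over control, the 3 highest listed at 0 in control, and up to 3 per gene list. The small-RNA, histone, single-exon, antisense and other long non-coding groups and their examples were chosen after values were seen. So were the genes on the other strand and the minimums of 100 and 300. Of 13 lists, the ATF4 targets and the mitochondrial genes had members. Lists of non-coding and coding snoRNA hosts, NMD and decay factors, splicing regulators, p53 targets, translation factors, housekeeping genes, nuclear-retained RNAs, globin genes and 2 sets of cell type markers had 0. One pair of an antisense isoform and the gene across from it is not reported here.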

Additional observations from a re-analysis of the deposited data

How the results depend on the processing

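No paired analysis was possible because each group has 1 library, and none could be left out. Counts past 2-fold (higher and lower in 5 comparisons, 10 counts) stayed within 1.5 times under a pseudocount of 10 and under scaling to library totals. That scaling shifted the median log2 change of all isoforms by -0.135, -0.14, -0.0035, -0.277 and -0.14. The comparisons are given in the order XRN1 over control, SMG6/XRN1 over XRN1, UPF1/XRN1 over XRN1, SMG6/XRN1 over control and UPF1/XRN1 over control. With members above 0 in all libraries, the lower count in SMG6/XRN1 over XRN1 was 12. With no minimum mean (the 440 of 448 isoforms above 0 in some library) the lower counts were 73, 37, 42, 35 and 45. At a mean of 100 or more (202) the higher counts were 23, 25, 24, 47 and 40 and the lower counts 14, 5, 7, 6 and 13. The next 2 alternatives were chosen after seeing the data. At 30 or more in every library (222) the higher counts were 19, 23, 22, 43 and 34 and the lower counts 14, 3, 7, 5 and 12. With signal summed per locus (310 loci) the lower counts were 28, 5, 7, 6 and 11. That sum also turned the direction of 18 log2 changes of named isoforms. In XRN1 over control they became -1.41 (USP12-AS2), -0.72 (RP11-90D11.1), -0.50 (RP11-13A1.3), 1.54 (RP11-504P24.5), 0.51 (TEX21P), 0.00 (RP3-510D11.1), -0.31 (AC005618.1) and -1.21 (RP11-324C10.1). In SMG6/XRN1 over XRN1 they became 0.72 (RP11-599J14.2), 0.17 (RP11-798G7.5), -0.08 (TSPYL1), 0.56 (RP11-113K21.4), 0.35 (RPL23AP53), 0.87 (FOXD2-AS1), -0.39 (HIST1H2BJ) and 0.45 (PPP1R15A). In UPF1/XRN1 over XRN1 they became -0.13 (RP11-798G7.5) and -0.22 (HIST1H2BJ). The sum takes in other isoforms of the locus by construction. Class x isoforms had a median of 20 estimated reads, which limits their precision.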
